A study of Rattus norvegicus with 20 samples.

Results

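The genes described here were the interleukins and interleukin receptors of rat kidney microvessels. They were the rows of the expression table whose gene name starts with Il and a number, with Il7r left out, and there were 53 such rows under 52 names among 16672 rows in all. Of these rows, 18 held ligands, soluble antagonists or binding proteins and 33 held receptor chains. The soluble decoy Il22ra2 was counted with the receptor chains by its name. The other 2 rows held neither and were the amino acid oxidase gene Il4i1 and the pseudogene Il13ra1-ps1. The RNA came from microvessels dissected from the kidneys of male Dahl salt-sensitive rats, called SS rats here, a strain whose blood pressure rises on a salty diet. One genotype was the SS strain itself (CCl2+/+) and the other was SS Ccl2-/- on the same strain, called null rats here after that label, a genotype named for the loss of the monocyte-attracting chemokine Ccl2. Both genotypes were kept for 2 weeks on a diet with 0.3% NaCl (low salt) or 4.0% NaCl (high salt), which gave 4 groups of 5 rats and 1 library per rat. Ages are not stated in the labels. The series title places the work under the question of how Ccl2 bears on the myogenic tone of these vessels.

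Interleukins are secreted proteins by which immune and tissue cells signal to each other. Most bind receptors built from a ligand-specific chain and a shared signalling chain, and pass the signal through JAK kinases and STAT factors, while the IL-1 and IL-17 families signal through adaptor proteins towards NF-kB. In the kidney of the salt-fed SS rat, T cells and macrophages gather around vessels and tubules.

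The libraries held 22.0 M to 47.9 M assigned reads each. Values below are the deposited normalised read counts, which are reads divided by a size factor per library, listed for rats 1 to 5 of a group in that order. They are not corrected for gene length, so levels are not compared between genes. Group values are the mean ± SD with n = 5 rats. Changes are log2 differences with their standard error, tested with limma on log2(value + 1) over 16153 genes and adjusted by the Benjamini-Hochberg method within each comparison, and a gene passed at an adjusted p under 0.05. Of the 53 rows, 49 entered the test. The other 4 (Il12b, Il1r2, Il36rn and Il9r) had 0 to 22 reads in any library and were not tested.

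The targeted gene was read first. On low salt Ccl2 stood at 173 ± 35.4 in null rats and 187 ± 28.5 in SS rats, and the groups overlapped (two-sided exact permutation test, p = 0.516). On high salt it stood at 98.3 ± 21.0 in null rats and 285 ± 113 in SS rats, without overlap (same exact permutation test, p = 0.00794, the smallest that 5 against 5 allows). The libraries labelled null still held reads assigned to Ccl2, and on low salt these reads did not separate the genotype labels. Whether they came from a changed transcript was not tested. Marker sums differed between groups as well. The summed T cell markers (12 of 14 listed genes in the table, Cd4 and Trac not among them) ran from 1375 to 1943 in SS rats on low salt, 2186 to 3271 in SS rats on high salt, 1895 to 2146 in null rats on low salt and 1927 to 2105 in null rats on high salt. The summed loop and distal tubule markers (6 of 6) ran from 204030 to 297762 in SS rats on low salt and from 88089 to 140175 in SS rats on high salt, against 129001 to 257216 and 127887 to 146311 in null rats. Smooth muscle markers (6 of 6) ran from 29074 to 56209 and blood endothelial markers (7 of 7) from 22264 to 41667 over all libraries. Proximal tubule markers (6 of 6) ran from 141216 to 216561 over all libraries. Collecting duct markers (6 of 6) ran from 35764 to 44289 in SS rats on low salt and from 28541 to 34937 in SS rats on high salt. In null rats the collecting duct sums ran from 36929 to 45112 on low salt and from 35435 to 52985 on high salt. All SS rats on high salt thus lay below all other rats in this sum. Transcripts of vessel wall cells were thus read in each library, beside those of tubules. In these bulk samples, fewer cells of a type and less RNA per cell cannot be told apart.

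In SS rats, far more interleukin genes were higher than lower after 2 weeks of high salt, and most of them were receptors. Of 49 genes tested, 20 rose and 1 fell, beside 9.52% and 7.73% of all genes tested (17.3% in either direction). The 20 were 16 of 31 receptor rows, 3 of 16 ligand rows (Il16, Il19 and Il24) and Il4i1, and the gene that fell was the receptor Il17rd. The median log2 change over the 49 was 0.34, beside -0.00 over all genes. In 12 of the genes every SS rat on high salt lay above every SS rat on low salt (5.02% of all genes), and in 1 every rat lay below (4.30% of all genes).

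In null rats the same change of diet moved fewer of them past the threshold, and fewer of all genes too (891 in place of 2787). The receptor gene Il1r1 rose and none fell, which is near the 3.06% and 2.45% of all genes called (5.52% in either direction). The median log2 change of the 49 was -0.05. The null groups did not overlap in 4 genes that were higher on high salt (5.60% of all genes) and in 1 that was lower (5.18%). On low salt no interleukin gene differed between genotypes in limma or edgeR (0 of 49, beside 0.557% of all genes), although 14 had an unadjusted p under 0.05 and DESeq2 called 2. The low-salt groups did not overlap in 3 genes higher in null rats (2.10% of all genes) and 1 lower (1.59%). On high salt 7 were lower in null rats than in SS rats and 1 was higher, beside 4.82% and 3.70% of all genes (8.52% in either direction). The 7 were Il19, Il24, Il34, Il17rb, Il1rl1, Il18r1 and Il3ra, and the higher one was Il12rb2. The high-salt groups did not overlap in 9 genes lower in null rats (4.52% of all genes) and 1 higher (3.89%). With total scaling the calls of Il12rb2, Il18r1 and Il3ra were lost (adjusted p = 0.0534, 0.0937 and 0.0526), and with the tubule covariate those 3 and Il1rl1 did not pass. The interaction subtracts the salt change of SS rats from that of null rats. It was negative in 39 of 49 and passed in 4 (Il1rl1, Il18r1, Il24 and Il3ra), beside 1.76% of all genes called as negative, 0.774% called as positive and 2.53% in either direction. The 4 became 0 with the tubule covariate, 1 with the mitochondrial covariate (Il1rl1), 12 with total scaling, and 1 to 7 with 1 rat left out. These comparisons share groups with each other and are not independent.

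**Figure D1:**
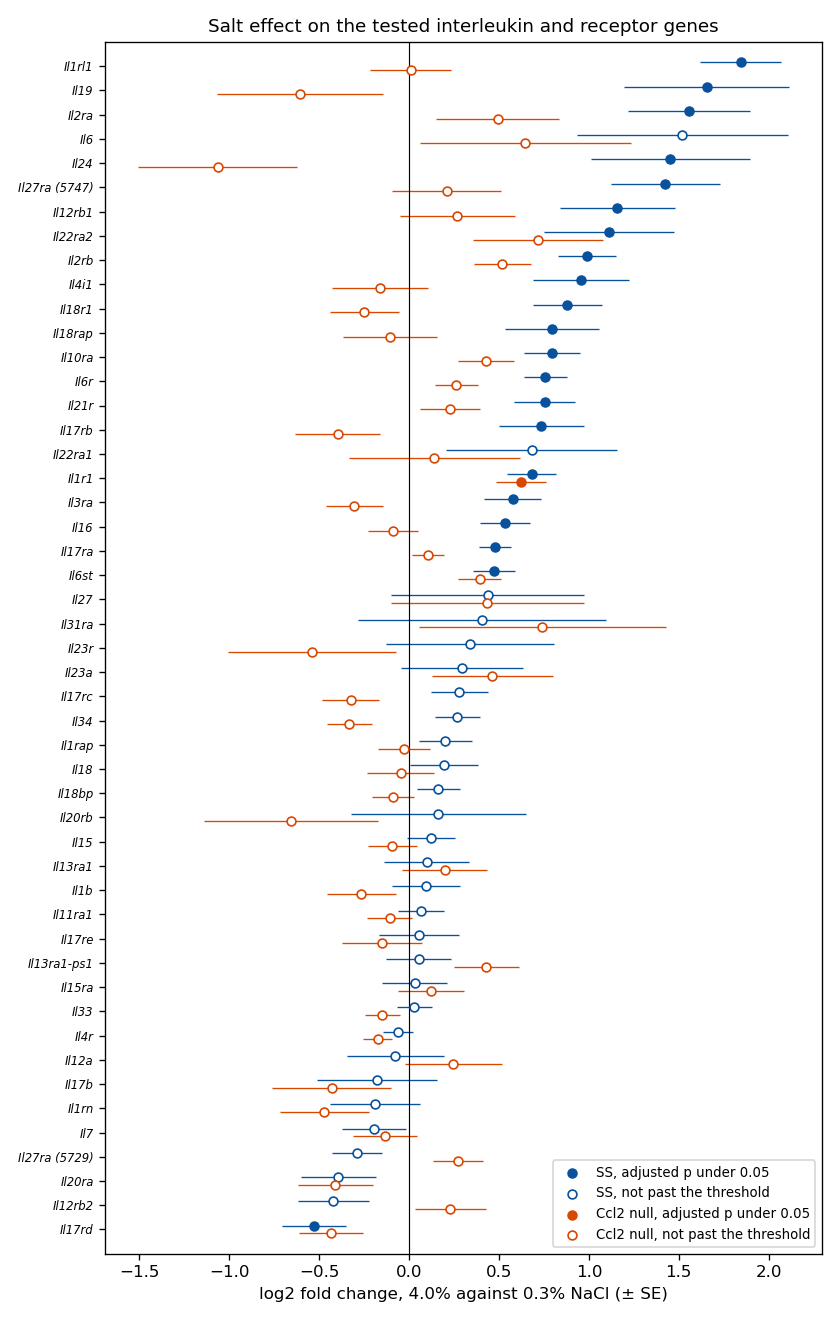
Log2 change from low to high salt (horizontal axis) for each of the 49 interleukin genes tested (vertical axis), in SS rats and in null rats, with the standard error as a bar and filled points for an adjusted p under 0.05. Filled points are 20 to the right and 1 to the left in SS rats, and 1, Il1r1, in null rats.

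Marker genes of several cell types also passed for salt in SS rats, beside 9.52% of all genes called as higher and 7.73% as lower. T cell markers passed as higher in 10 of 12, fibroblast markers in 6 of 6 and macrophage markers in 6 of 10, and loop and distal tubule markers passed as lower in 5 of 6. Summed macrophage markers (10 of 12 listed genes in the table, Cd163 and Marco not among them) ran from 15744 to 26926 in SS rats on low salt and from 26659 to 36835 on high salt, against 20603 to 28549 and 25443 to 32537 in null rats. Summed fibroblast markers (6 of 6) ran from 10148 to 16001 and from 22943 to 36258 in SS rats, against 17669 to 23504 and 22326 to 32820.4 in null rats. The part of these T cell, macrophage and fibroblast markers in the result was not tested. With a tubule score (the mean log2 value of 3 tubule marker lists) as a covariate the 20 genes kept their sign and none passed, and among all genes 48 passed in place of 2787. With the mitochondrially encoded share as a covariate, which was 22.6 to 42.5% in SS rats on low salt and 6.90 to 20.4% in SS rats on high salt, 4 of the 20 passed. In a fit of the SS groups alone 15 of the 20 passed, without Il12rb1, Il17rb, Il18rap, Il22ra2 and Il4i1.

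Among the ligands that passed, Il19 and Il24 differed most. Both belong to the IL-10 family, signal through receptors that share the Il20rb chain, and are known from skin and other epithelia as signals towards tissue cells. In SS rats Il19 read 35.2, 44.4, 47.8, 25.3 and 27.7 on low salt (36.1 ± 9.93). On high salt SS rats read 299, 178, 97.4, 63.9 and 53.8 (138 ± 102). In null rats Il19 read 70.4, 55.1, 19.3, 9.53 and 21.8 on low salt (35.2 ± 26.1) and 13.2, 14.9, 26.3, 23.8 and 14.7 on high salt (18.6 ± 6.01). Every SS rat on high salt lay above every SS rat on low salt and above every null rat on high salt, with SS high-salt rat 1 the highest. That rat's library also held the lowest summed smooth muscle (29074) and blood endothelial (22264) markers of all 20 libraries. The part of this in the result was not tested. Il19 rose with salt in SS rats by 1.66 ± 0.46 (adjusted p = 0.0159) and was lower in null than in SS rats on high salt, with a log2 difference of -2.59 ± 0.46 (adjusted p = 0.00185). Its salt difference in null rats was -0.61 ± 0.46 (adjusted p = 0.456), and the interaction of -2.26 ± 0.65 did not pass in limma (adjusted p = 0.0635), while edgeR gave 0.0268 and DESeq2 0.00595.

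Il24 followed the same pattern. In SS rats Il24 read 76.4, 63.5, 66.3, 29.5 and 31.1 on low salt (53.4 ± 21.6). High-salt SS rats read 244, 212, 207, 95.1 and 47.4 (161 ± 85). Null rats read 81, 34.6, 12.3, 60.3 and 52.8 on low salt (48.2 ± 26.1) and 16.5, 20.5, 17.3, 25.1 and 16.8 on high salt (19.2 ± 3.63). The SS groups overlapped in rat 5 on high salt, whereas all 5 null rats on high salt lay below all SS rats on high salt. The rats of the SS high-salt group stood in the same order for Il24 as for Il19. The rise in SS rats was 1.45 ± 0.44 (adjusted p = 0.0268), the difference of null from SS rats on high salt was -2.79 ± 0.44 (adjusted p = 7.54e-04), and the interaction was -2.52 ± 0.63 (adjusted p = 0.034). The SS rise of Il24 did not pass when rat 4 or 5 on low salt or rat 1, 2 or 3 on high salt was left out (adjusted p from 0.0591 to 0.0712), and the interaction did not pass without SS rat 4 or 5 on low salt, SS rat 1, 2 or 3 on high salt, null rat 1, 4 or 5 on low salt, or null rat 1, 3 or 5 on high salt (0.0547 to 0.0678). With the tubule and mitochondrial covariates the interaction of Il24 was -1.93 (adjusted p = 0.530) and -2.65 (0.0680). The high-salt genotype difference passed under every alternative tried for both genes, from -3.14 to -2.23 for Il19 and from -3.17 to -2.38 for Il24. Both genes are read at low depth, with as few as 9 reads in a library for Il19 and 14 for Il24. Of the receptor chains that bind them, Il20ra stood at 184 ± 53.9 and 138 ± 31.2 in SS rats on low and high salt (-0.39 ± 0.21, adjusted p = 0.205), and Il20rb at 9.15 ± 4.63 and 11.6 ± 7.29 (0.16 ± 0.49, adjusted p = 0.858). The IL-10 family receptor gene Il22ra1 did not pass for salt in SS rats either (0.68 ± 0.48, adjusted p = 0.35).

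**Figure D2:**
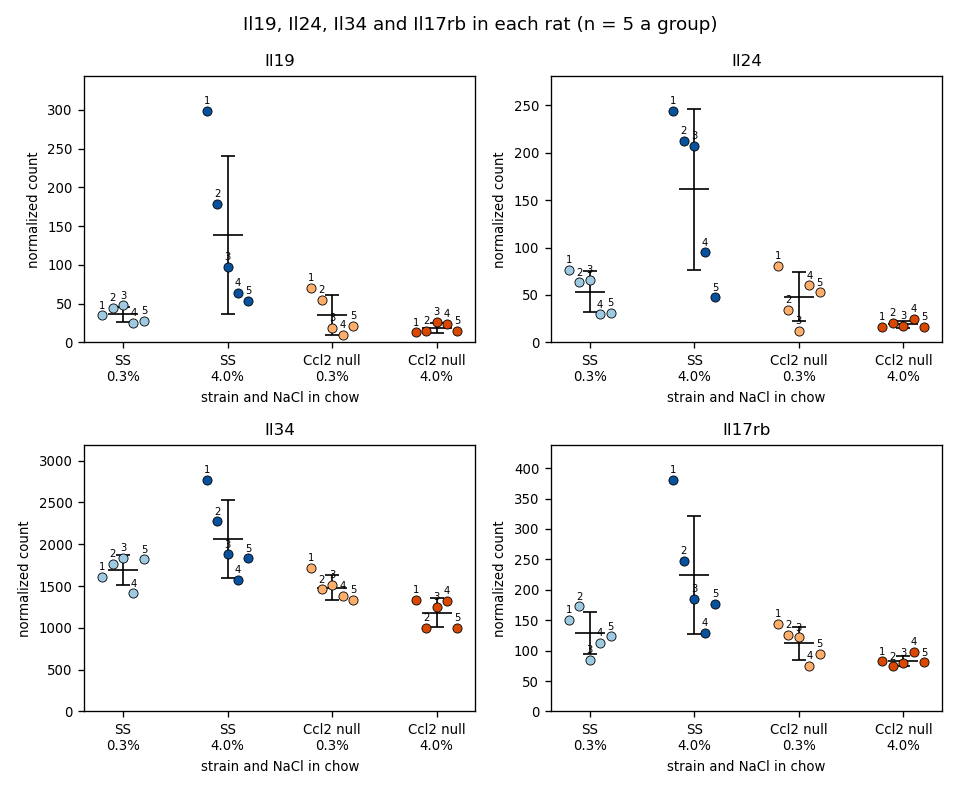
Normalised read count (vertical axis) of Il19, Il24, Il34 and Il17rb in the 4 groups (horizontal axis), with each numbered point 1 rat and bars for the mean ± SD of 5 rats. In each panel all 5 null rats on high salt lie below all 5 SS rats on high salt, and SS high-salt rat 1 is the highest rat.

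Promoter sequence was available for 39 of the 52 names, as 250 bases before to 50 bases after the start in the RefSeq annotation of build GRCr8, which is not the build the reads were aligned to. The word TTCNNNGAA, which STAT factors bind, is its own reverse complement and occurred in 8.68% of 27457 rat promoters and in 4 of these 39 (10.3%), which were Il12rb2, Il18r1, Il19 and Il24. That share is near the background. On high salt Il12rb2 was higher in null than in SS rats, and Il18r1, Il19 and Il24 were lower. No promoter sequence was available for Il34, which was lower too. The promoters of Il1rl1, Il17rb and Il3ra, also lower, did not hold the word. The promoters of Il19, Il24 and Il18r1 are shown with it in capitals, each read 5′ to 3′ on the strand of its gene. Il19 lies at chr13:44958665-44958964 on the minus strand with the word at -239 to -231 from the start, Il24 at chr13:44910711-44911010 on the minus strand with the word at -152 to -144, and Il18r1 at chr9:50223241-50223540 on the plus strand with the word at -125 to -117.
Il19: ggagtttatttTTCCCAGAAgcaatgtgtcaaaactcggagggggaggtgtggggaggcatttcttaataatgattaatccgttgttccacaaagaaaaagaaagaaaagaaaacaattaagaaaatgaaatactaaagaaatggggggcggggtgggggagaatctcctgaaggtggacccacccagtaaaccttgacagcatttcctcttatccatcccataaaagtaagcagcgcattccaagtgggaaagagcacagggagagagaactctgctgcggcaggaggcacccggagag
Il24: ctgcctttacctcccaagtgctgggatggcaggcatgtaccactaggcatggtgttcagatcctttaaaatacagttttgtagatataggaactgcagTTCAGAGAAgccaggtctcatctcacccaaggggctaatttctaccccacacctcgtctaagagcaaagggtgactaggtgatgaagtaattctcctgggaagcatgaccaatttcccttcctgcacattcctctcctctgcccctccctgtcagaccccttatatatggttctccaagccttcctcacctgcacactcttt
Il18r1: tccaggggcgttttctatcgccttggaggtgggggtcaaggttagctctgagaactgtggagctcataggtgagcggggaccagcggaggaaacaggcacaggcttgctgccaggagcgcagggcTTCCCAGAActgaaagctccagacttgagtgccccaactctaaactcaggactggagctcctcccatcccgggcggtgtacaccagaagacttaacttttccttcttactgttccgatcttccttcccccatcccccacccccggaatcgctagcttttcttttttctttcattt
The match is a description of letters and does not show a bound site. Of the other words searched on both strands, the NF-kB word occurred in 4.16% of promoters and in 7 of the 39, the AP-1 word TGANTCA in 7.33% and 4, the C/EBP word TTGCNNAA in 10.5% and 6, and TATAAA in 14.3% and 6.

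Il34 is a ligand of the macrophage receptor Csf1r and keeps tissue macrophages alive. In SS rats Il34 read 1609, 1762, 1841, 1415 and 1819 on low salt (1689 ± 178). The high-salt values were 2771, 2273, 1879, 1576 and 1833 (2066 ± 466). Among null rats it read 1719, 1459, 1515, 1380.4 and 1337 on low salt (1482 ± 149) and 1333, 1002, 1255, 1325 and 997 on high salt (1182 ± 169.5). All null rats on high salt lay below all other null rats and below all SS rats on high salt. Neither salt difference passed, at 0.27 ± 0.13 in SS rats (adjusted p = 0.144) and -0.33 ± 0.13 in null rats (adjusted p = 0.112). On high salt Il34 was lower in null than in SS rats, with a log2 difference of -0.79 ± 0.13 (adjusted p = 7.54e-04), and this passed under every alternative, from -0.95 to -0.68. The interaction was -0.60 ± 0.18 (adjusted p = 0.0697). Its receptor Csf1r rose with salt in SS rats by 0.45 ± 0.13 (adjusted p = 0.0244), a call lost when rat 1, 2 or 3 of the SS low-salt group or rat 2 of the SS high-salt group was left out (0.0545 to 0.0775).

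Il16, a chemoattractant for Cd4 T cells that many lymphocytes store as a precursor, rose with salt in SS rats. It read 504, 305, 365, 494 and 421 on low salt (418 ± 84.9) and 463, 546, 720.1, 599 and 685 on high salt (603 ± 104), with overlap, and the change was 0.53 ± 0.14 (adjusted p = 0.0107). Null rats read 437, 477, 540.1, 639 and 490.2 on low salt and 451, 512, 424, 539.8 and 494 on high salt, and the interaction was -0.62 ± 0.20 (adjusted p = 0.0924). The other ligand genes did not pass in any comparison. The alarmin Il33, which cells release on damage, stood at 3029 ± 244 and 3132 ± 630.3 in SS rats on low and high salt (log2 difference 0.03 ± 0.10, adjusted p = 0.871) and at 3148 ± 218 and 2834 ± 139.7 in null rats. Il1b stood at 343 ± 122 and 352 ± 49.4 in SS rats (0.09 ± 0.19, adjusted p = 0.781), and Il18 at 390.4 ± 80 and 458 ± 138 (0.19 ± 0.19, adjusted p = 0.521). Il15, which sustains natural killer and memory T cells, stood at 423 ± 57.4 and 465 ± 85.4 in SS rats (0.12 ± 0.13, adjusted p = 0.57). Il6 was read at 0 to 24 reads a library, with a log2 difference of 1.52 ± 0.59 in SS rats that did not pass (adjusted p = 0.0772).

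The receptors of the IL-1 family rose with salt in SS rats in 4 of the 5 rows tested, beside 9.52% of all genes called as higher. None of the family's 5 ligands or antagonists tested (Il1b, Il18, Il18bp, Il1rn and Il33) passed. With so few genes, that is near the 17.3% of all genes called in either direction. Il1rl1 is the receptor of Il33, carried by regulatory T cells, mast cells and innate lymphoid cells. Of 8 mast cell and basophil markers only Kit and Hdc were in the table. The sum of Kit and Hdc ran from 290 to 464 in SS rats on low salt and from 492 to 612 on high salt, without overlap, against 281 to 495 and 393 to 602 in null rats, and 1 of the 2 passed as higher in SS rats. Their part in the result was not tested. In SS rats Il1rl1 read 33.9, 42.9, 47.8, 76 and 67.2 on low salt (53.6 ± 17.5). On high salt SS rats read 167, 241, 198, 191 and 149.9 (189 ± 34.7). Null rats had Il1rl1 at 98.3, 83.1, 97.2, 91 and 93.7 on low salt (92.7 ± 6.05) and 55.1, 75.3, 112, 113 and 132 on high salt (97.6 ± 31.4). The SS groups were far apart, and both null groups lay above the SS low-salt group on average and below the SS high-salt group. The salt effect was 1.84 ± 0.22 in SS rats (adjusted p = 2.03e-05) and 0.01 ± 0.22 in null rats (adjusted p = 0.988), with an interaction of -1.83 ± 0.32 (adjusted p = 0.0057). On high salt null rats differed from SS rats by -0.997 ± 0.22 (adjusted p = 0.0104), and on low salt the groups did not overlap in the other direction, with 0.84 ± 0.22 (adjusted p = 0.0682). Of all alternatives, only the tubule covariate ended these 3 calls, with the values little moved, at 1.68 for salt in SS rats (adjusted p = 0.0965), -0.90 for genotype on high salt (0.0998) and -1.70 for the interaction (0.207).

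Il18r1, the ligand-binding chain of the Il18 receptor, behaved alike but with smaller steps. It read 37.6, 49.2, 53.3, 70.7 and 73.9 in SS rats on low salt (56.9 ± 15.2). High-salt SS rats read 88.1, 128, 121, 90.5 and 92.2 (104 ± 18.9). Null rats read 83.9, 97.1, 82.3, 54 and 78.2 on low salt (79.1 ± 15.7) and 57.3, 65.1, 74.1, 66 and 64.9 on high salt (65.5 ± 5.95). The SS high-salt rats lay above all SS low-salt and all null high-salt rats. The SS rise was 0.88 ± 0.19 (adjusted p = 0.00318), the high-salt genotype difference -0.64 ± 0.19 (adjusted p = 0.0391) and the interaction -1.13 ± 0.27 (adjusted p = 0.0286). The genotype difference did not pass without any 1 of 7 rats (SS high-salt 1, 2 or 3, or null high-salt 1, 2, 4 or 5; adjusted p 0.0529 to 0.0933), and the interaction without any 1 of 5 (SS high-salt 2 or 3, null low-salt 2 or 5, or null high-salt 1; 0.0513 to 0.0586). With the tubule and mitochondrial covariates the interaction of Il18r1 was -1.27 (adjusted p = 0.287) and -1.10 (0.0748). The partner chain Il18rap stood at 36.8 ± 8.79 and 65 ± 17.8 in SS rats and at 54.6 ± 17.5 and 50.1 ± 13.7 in null rats. Its SS rise of 0.80 ± 0.26 (adjusted p = 0.0386) did not pass without any 1 of 6 rats (SS low-salt 1, 3 or 5, or SS high-salt 2, 3 or 4; adjusted p 0.0535 to 0.109).

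Il1r1, the signalling receptor for IL-1, was the interleukin gene whose rise with salt passed the threshold in both genotypes. Il6st and Il2rb had positive salt differences in both as well, but missed the threshold in null rats (adjusted p = 0.0518 and 0.0574). Il1r1 read 229, 249, 189, 313 and 277 in SS rats on low salt (251.6 ± 47.1). The high-salt values were 321, 447, 323, 474 and 456 (404 ± 75.6). Null rats had Il1r1 at 355, 333, 268, 267 and 302 on low salt (305 ± 39.1) and 485, 453, 431, 532 and 439.8 on high salt (468 ± 41). Neither pair of groups overlapped. The change was 0.68 ± 0.14 in SS rats (adjusted p = 0.00187) and 0.62 ± 0.14 in null rats (adjusted p = 0.0128), with an interaction of -0.06 ± 0.19 (adjusted p = 0.908). The null change passed under every alternative tried, from 0.55 to 0.74. The accessory chain Il1rap did not pass in SS rats, at 0.20 ± 0.15 (adjusted p = 0.366).

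**Figure D3:**
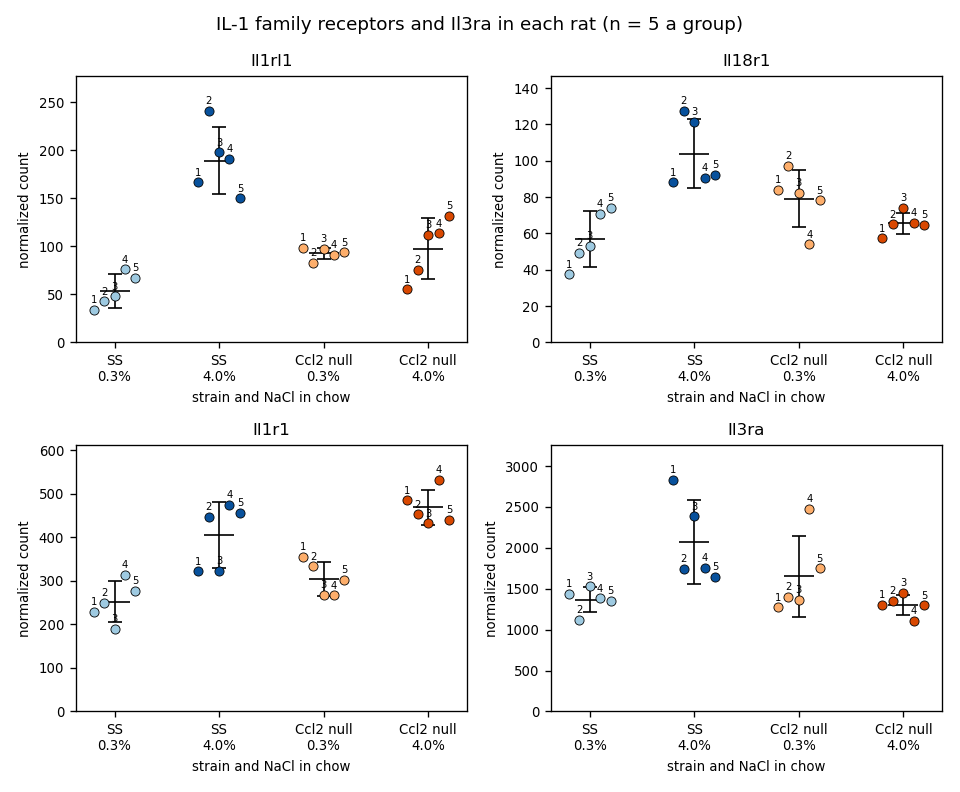
Normalised read count (vertical axis) of the IL-1 family receptor genes Il1rl1, Il18r1 and Il1r1 and of Il3ra in the 4 groups (horizontal axis), with each numbered point 1 rat and bars for the mean ± SD of 5 rats. The means of Il1rl1, Il18r1 and Il3ra are highest in SS rats on high salt, whereas Il1r1 is higher on high salt in both genotypes.

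Il2ra, the high-affinity chain for IL-2 found on activated and regulatory T cells, read 6.06, 20.6, 18.5, 22.2 and 29.4 in SS rats on low salt (19.3 ± 8.49). On high salt SS rats read 33.3, 86.9, 75.4, 42.6 and 44.8 (56.6 ± 23.2). In null rats Il2ra read 27.9, 28, 14.9, 33.9 and 19 on low salt (24.7 ± 7.66) and 28.7, 43.7, 38.1, 35.6 and 26.2 on high salt (34.5 ± 7.11). The SS groups did not overlap and the null groups did. The changes were 1.56 ± 0.34 (adjusted p = 0.00341) and 0.49 ± 0.34 (adjusted p = 0.405), and the interaction of -1.06 ± 0.48 did not pass (adjusted p = 0.249). Il2rb, the chain shared by the IL-2 and IL-15 receptors, read 164, 137, 182, 268 and 202 in SS rats on low salt (190.3 ± 49.6). High-salt SS rats read 283, 405, 354, 499 and 339.5 (376 ± 81.2). In null rats Il2rb read 282, 308, 294, 288 and 258 on low salt (286 ± 18.5) and 306, 416, 431, 436 and 483 on high salt (414 ± 65.3). The SS groups were separate, with a change of 0.99 ± 0.16 (adjusted p = 2.72e-04), and the null difference of 0.52 ± 0.16 missed the threshold (adjusted p = 0.0574), with an interaction of -0.47 ± 0.23 (adjusted p = 0.275).

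Il21r, the receptor of the helper T cell cytokine IL-21, read 131, 127, 168, 196 and 214 in SS rats on low salt (167 ± 38.7) and 286, 380.3, 242, 297 and 209 on high salt (283 ± 64.9), a rise of 0.75 ± 0.17 (adjusted p = 0.004) with overlapping groups. Null rats read 245, 199.9, 246, 251 and 192 on low salt and 268, 274, 256, 335 and 203 on high salt (0.23 ± 0.17, adjusted p = 0.443). Il10ra, the ligand-binding chain for the anti-inflammatory IL-10, read 462, 276, 319.5, 529 and 513 in SS rats on low salt (419.8 ± 115). The high-salt values were 527, 785, 715, 876 and 674 (715 ± 130.0). The SS groups overlapped in low-salt rat 4 and high-salt rat 1, and the rise was 0.80 ± 0.16 (adjusted p = 0.00146). In null rats Il10ra read 575, 595, 696, 534 and 544 on low salt and 708, 839.7, 733, 879 and 804 on high salt, without overlap, and the difference of 0.43 ± 0.16 did not pass (adjusted p = 0.0979). In SS rats the T cell marker sums given above rose with these genes, and in null rats those sums overlapped between diets. For salt in null rats 0 of 12 markers were called, near the 5.52% of all genes called in either direction. The part of these markers in the result was not tested.

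The chains of the IL-12 group did not all move alike. Il12rb1, shared by the IL-12 and IL-23 receptors, read 30.3, 23.8, 8.69, 39 and 36.1 in SS rats on low salt (27.6 ± 12.1) and 59.5, 74.3, 52.5, 43.4 and 56.4 on high salt (57.2 ± 11.3), without overlap, and rose by 1.16 ± 0.32 (adjusted p = 0.0158). Null rats read 45.3, 41.1, 35, 29.6 and 44.4 on low salt and 25.4, 52.1, 48.5, 43.6 and 79.6 on high salt (0.27 ± 0.32, adjusted p = 0.657). Il12rb2, the IL-12-specific chain, lay lower in all SS rats on high salt, at 82.1, 88.4, 75.4, 91.3 and 85.8 (84.6 ± 6.14), than in those on low salt, at 98.2, 121, 127, 112 and 111 (114 ± 11), but the difference of -0.42 ± 0.20 did not pass (adjusted p = 0.152). Null rats read 165, 143, 151, 57.2 and 108 on low salt (125 ± 43.1) and 120.1, 149, 133, 149 and 139 on high salt (138 ± 12.1). Il12rb2 was the gene higher in null than in SS rats on high salt, with a log2 difference of 0.70 ± 0.20 without overlap (adjusted p = 0.0328), a call lost without any 1 of 7 rats (SS high-salt 1, 2 or 3, or null high-salt 2, 3, 4 or 5; adjusted p 0.0533 to 0.0737).

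The name Il27ra, the IL-27 receptor chain, was given to 2 rows. The row ENSRNOG00000005747 read 31.5, 19, 8.69, 26.4 and 37 in SS rats on low salt (24.5 ± 11) and 50, 61.8, 66.9, 54 and 75.6 on high salt (61.7 ± 10.2), without overlap, and rose by 1.42 ± 0.30 (adjusted p = 0.00274). In null rats this row read 25.1, 57, 35.9, 57.2 and 33.1 on low salt and 63.9, 37.2, 42.2, 42.2 and 48.2 on high salt. The row ENSRNOG00000005729 had group means of 4146 and 3384 in SS rats and 3377 and 4024 in null rats and did not pass, with a log2 difference of -0.29 in SS rats (adjusted p = 0.15). The files do not settle which row is the receptor gene.

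**Figure D4:**
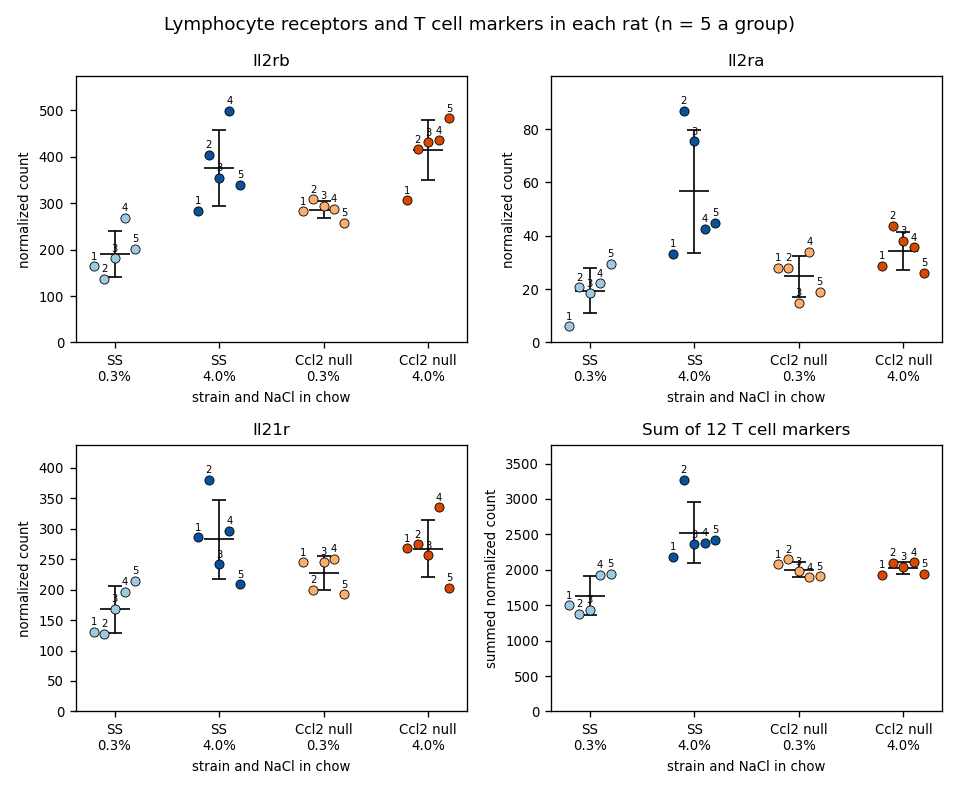
Normalised read count (vertical axis) of the lymphocyte receptor genes Il2rb, Il2ra and Il21r and the sum of 12 T cell markers in the 4 groups (horizontal axis), with each numbered point 1 rat and bars for the mean ± SD of 5 rats. In each panel the SS high-salt mean lies above the SS low-salt mean.

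The receptor of IL-6 consists of the specific chain Il6r and the chain Il6st, which the cytokines of that family share. Il6r read 388, 341, 324, 474 and 456 in SS rats on low salt (397 ± 67). On high salt SS rats read 570.2, 829, 664, 759 and 539 (672 ± 123). For null rats the values were 522, 539.9, 530.5, 475 and 526 on low salt (519 ± 25.2) and 557, 711, 609, 631 and 614 on high salt (624 ± 56). Neither genotype's groups overlapped, and the change was 0.76 ± 0.12 in SS rats (adjusted p = 2.15e-04) and 0.26 ± 0.12 in null rats, where it did not pass (adjusted p = 0.185). Il6st read 4974, 5581, 4981, 6158 and 5419 in SS rats on low salt (5423 ± 491) and 5298, 9233, 7195, 7835 and 8585 on high salt (7629 ± 1512), with rat 1 among the low-salt values. In null rats Il6st read 7215, 6411, 5973, 4874 and 5803 on low salt (6055 ± 857) and 7508, 8648, 7662, 7786 and 7861 on high salt (7893 ± 443), without overlap. It rose by 0.47 ± 0.12 in SS rats (adjusted p = 0.00828), and the null difference of 0.39 ± 0.12 missed the threshold (adjusted p = 0.0518). Neither gene had an interaction that passed, with -0.49 ± 0.17 for Il6r (adjusted p = 0.117) and -0.08 ± 0.17 for Il6st (adjusted p = 0.845).

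Of the IL-17 receptor genes, Il17ra and Il17rb rose with salt in SS rats and Il17rd fell, and Il17rc and Il17re did not pass. Il17ra, the chain common to the family, read 1909, 1414, 1764, 1805 and 1941 in SS rats on low salt (1767 ± 210.0). High-salt SS rats read 2363, 2602, 2833, 2301 and 2206 (2461 ± 254). Null rats had Il17ra at 1892, 1988, 1935, 2240.0 and 1987 on low salt (2008 ± 136) and 2201, 2481, 2177, 1973 and 2001 on high salt (2167 ± 203). The SS groups did not overlap, with a change of 0.48 ± 0.09 (adjusted p = 8.87e-04) beside 0.11 ± 0.09 in null rats (adjusted p = 0.502). Il17rb, which binds IL-25 and IL-17B, read 150.3, 173, 84.8, 113 and 124 in SS rats on low salt (129 ± 34.1). The high-salt values were 381, 247, 185, 129 and 177 (224 ± 97.3). In null rats Il17rb read 144, 126, 122, 75.2 and 94.4 on low salt (112 ± 27.2) and 82.7, 74.4, 80.3, 97.7 and 80.6 on high salt (83.1 ± 8.69). All null high-salt rats lay below all SS high-salt rats, with a log2 difference of -1.33 ± 0.24 (adjusted p = 0.00185), and this passed under every alternative, from -1.66 to -1.11. Its SS rise of 0.74 ± 0.24 (adjusted p = 0.034) did not pass without rat 3, 4 or 5 on low salt or rat 1 or 2 on high salt (adjusted p 0.0587 to 0.0985), and its interaction was -1.13 ± 0.33 (adjusted p = 0.0696). Il17rd, known as an inhibitor of growth factor signalling as well as an IL-17 receptor relative, went from 240.5 ± 46.5 to 168 ± 41.7 in SS rats (-0.53 ± 0.18, adjusted p = 0.044) and from 260.0 ± 50.1 to 191 ± 28.9 in null rats (-0.43 ± 0.18, adjusted p = 0.143). The fall in SS rats did not pass in edgeR (adjusted p = 0.0513), nor without SS rat 1, 2, 4 or 5 on low salt, SS rat 3 or 4 on high salt, null rat 2 or 5 on low salt, or null rat 2, 3 or 4 on high salt (0.0501 to 0.124).

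Il3ra, the IL-3-specific chain carried by basophils, plasmacytoid dendritic cells and endothelium, read 1437, 1119, 1528, 1384 and 1349.5 in SS rats on low salt (1364 ± 152). On high salt SS rats read 2833, 1742, 2386, 1754 and 1645 (2072 ± 517). For null rats Il3ra read 1271, 1399, 1364, 2477 and 1748 on low salt (1652 ± 495) and 1301, 1350.2, 1449.6, 1106 and 1299 on high salt (1301 ± 125). The SS high-salt rats lay above all SS low-salt and all null high-salt rats, and null low-salt rat 4 stood above the rest of its group. The SS rise was 0.58 ± 0.16 (adjusted p = 0.0149), the high-salt genotype difference -0.64 ± 0.16 (adjusted p = 0.0169) and the interaction -0.88 ± 0.22 (adjusted p = 0.0372). Without SS high-salt rat 1 the genotype difference was -0.52 and did not pass (adjusted p = 0.054), and the interaction was lost without SS rat 2, 4 or 5 on low salt, SS rat 1 or 3 on high salt, null rat 4 or 5 on low salt, or null rat 1, 2, 4 or 5 on high salt (0.0504 to 0.0778). With the tubule and mitochondrial covariates the Il3ra interaction was -0.45 (adjusted p = 0.71) and -0.69 (0.147).

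The other rows that rose in SS rats were at low counts. Il4i1, an enzyme that degrades aromatic amino acids in antigen-presenting cells, read 31.5, 11.1, 17.4, 20 and 16 in SS rats on low salt (19.2 ± 7.61) and 50, 29, 30.6, 34.2 and 41 on high salt (36.9 ± 8.64), a rise of 0.96 ± 0.27 with overlap (adjusted p = 0.0161). Null rats read 19.3, 27.1, 21.9, 36 and 19 on low salt and 26.5, 19.5, 18, 26.4 and 17.8 on high salt. Il22ra2, a soluble decoy that binds IL-22, had 2 to 23 reads a library and went from 6.25 ± 3.66 to 13.3 ± 2.31 in SS rats (1.11 ± 0.36, adjusted p = 0.0366), a call lost without any 1 of 7 rats (SS low-salt 2, 3 or 5, or SS high-salt 1, 2, 4 or 5; adjusted p 0.0519 to 0.104) and in edgeR and DESeq2. Receptor genes that did not pass included Il4r, at 3126 ± 199 and 3009 ± 369.7 in SS rats, and Il11ra1, at 2633 ± 455 and 2749 ± 367. Reads of Il13ra1 and its pseudogene copy Il13ra1-ps1 can be split between them, so both values are uncertain.

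The genes that carry interleukin signals were read from 8 lists. The lists were taken from general knowledge of these pathways, but they were chosen with earlier results of these data known. The lists are therefore no independent test, and their counts are description. Of the calls of list genes that were followed through the alternatives, 35 did not pass with the tubule covariate and 9 did. With the mitochondrial covariate 19 of these calls did not pass and 25 did. None of the followed calls for salt in SS rats, and none for the interaction, passed with the tubule covariate. Their median log2 change with salt in SS rats was 0.02 for JAK kinases and STAT factors, -0.04 for signal inhibitors, 0.61 for IL-6 relatives, 0.76 for IL-17 signalling, 0.06 for IL-1 processing and signalling, 0.29 for colony stimulating factors and TSLP, 0.19 for helper T cell genes and 0.78 for type 2 response genes, beside -0.00 over all genes. The counts that follow stand beside 9.52% of all genes called as higher and 7.73% called as lower with salt in SS rats, and 4.82% called as lower in null rats on high salt. Of the JAK kinases and STAT factors, 1 of 8 tested rose with salt in SS rats (Tyk2, 0.36 ± 0.08, adjusted p = 0.00308) and 1 fell (Stat4, -0.28 ± 0.07, adjusted p = 0.00933, but 0.11 with total scaling), both near the share of all genes. Of 11 signal inhibitors, 2 rose, Socs3 by 1.47 ± 0.22 (adjusted p = 1.46e-04) and Socs1 by 0.91 ± 0.24 (adjusted p = 0.0107). Socs3, which STAT3 induces and which blocks the shared IL-6 chain, was also lower in null than in SS rats on high salt, with a log2 difference of -1.45 ± 0.22 (adjusted p = 4.97e-04), with an interaction of -1.70 ± 0.31 (adjusted p = 0.00811).

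Of 9 relatives of IL-6 that use its shared chain, 4 rose in SS rats, beside 9.52% of all genes, and 1 fell, near the 7.73% of all genes. Among the rises were the oncostatin M receptor Osmr at 0.72 ± 0.12 (adjusted p = 3.48e-04), the leukaemia inhibitory factor gene Lif at 1.02 ± 0.26 (adjusted p = 0.00909) and Clcf1, a cytokine that signals through the shared chain, at 0.61 ± 0.17 (adjusted p = 0.0175). The Clcf1 call was lost without SS high-salt rat 3 (0.48, adjusted p = 0.0591). On high salt 2 were lower in null than in SS rats, Lif at -1.37 ± 0.26 (adjusted p = 0.00292) and Clcf1 at -0.93 ± 0.17 (adjusted p = 0.00252). The interaction passed for Clcf1, at -1.06 ± 0.24 (adjusted p = 0.0233). In null rats Cntfr was the list's gene that rose with salt, by 1.87 ± 0.40 (adjusted p = 0.0106).

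Of 8 IL-17 signalling genes tested, 6 rose in SS rats, beside 9.52% of all genes, among them the NF-kB cofactor Nfkbiz at 1.06 ± 0.19 (adjusted p = 6.08e-04), the receptor adaptor Traf3ip2 at 0.51 ± 0.09 (adjusted p = 8.33e-04) and the transcription factor gene Cebpd at 1.38 ± 0.28 (adjusted p = 0.00197). On high salt 3 were lower in null than in SS rats, beside 4.82% of all genes, Lcn2 at -1.81 ± 0.23 (adjusted p = 1.12e-04), Nfkbiz at -0.65 ± 0.19 (adjusted p = 0.035) and Cebpb at -0.88 ± 0.26 (adjusted p = 0.0373). Lcn2, a siderophore-binding protein also made by injured tubules, was the list's gene that fell with salt in null rats, at -0.82 ± 0.23 (adjusted p = 0.0401). The fall of Lcn2 was lost without null rat 1, 2 or 5 on low salt or any 1 null high-salt rat (adjusted p 0.0570 to 0.0851). The high-salt genotype difference was lost for Nfkbiz without SS rat 1, 2 or 3 on high salt or null rat 1, 2 or 4 on high salt (0.0589 to 0.0971), and for Cebpb without SS rat 1 or 3 on high salt or any 1 null high-salt rat (0.0523 to 0.104). Of 13 IL-1 processing and signalling genes, 3 rose in SS rats (Irak3 by 0.47 ± 0.11, adjusted p = 0.00456, and Nlrp3 by 0.62 ± 0.17, adjusted p = 0.0154, and Gsdmd) and 1 fell (Tollip, -0.18 ± 0.06, but 0.20 with total scaling). None passed in another comparison. Of all genes, 5.52% passed for salt in null rats, 0.557% and 8.52% between genotypes on low and high salt, and 2.53% for the interaction. With 13 genes, the absence is near those shares. The Nlrp3 call was lost without SS high-salt rat 2 (adjusted p = 0.0529), that of Gsdmd without rat 2 or 5 of the SS low-salt group or rat 1 or 2 of the SS high-salt group (0.0504 to 0.0628), and that of Tollip without any 1 of 12 rats (0.0524 to 0.133).

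Of 7 colony stimulating factor and TSLP genes tested, 2 rose in SS rats, Csf1r and Csf2ra, and Csf2rb, which pairs with Il3ra, rose in null rats by 0.86 ± 0.18 (adjusted p = 0.0108). On high salt 2 of the list were lower in null than in SS rats, the TSLP receptor gene Crlf2 at -0.56 ± 0.13 (adjusted p = 0.0152, but 0.0604 with total scaling and 0.0921 with the tubule covariate) and Csf2ra at -0.30 ± 0.08 (adjusted p = 0.0241). The Csf2ra difference was lost without SS rat 1 or 2 or null rat 4 on high salt (0.0507 to 0.0765), with total scaling (0.184) and with the tubule covariate (0.412). Of 10 helper T cell genes tested, 2 rose in SS rats, the regulatory T cell factor Foxp3 by 1.97 ± 0.46 (adjusted p = 0.0049) and the type 1 factor Tbx21 by 1.26 ± 0.29 (adjusted p = 0.00529). In null rats Bcl6, the factor of follicular helper T cells that other cells also express, rose by 1.27 ± 0.32 (adjusted p = 0.0255), beside -0.04 ± 0.32 in SS rats (adjusted p = 0.956). Its interaction did not pass (1.31 ± 0.46, adjusted p = 0.128), and its rise was lost without null rat 2 or 3 on low salt or null rat 4 or 5 on high salt (0.0503 to 0.0741). Of 6 genes of a type 2 response, 3 rose in SS rats, which were the macrophage lectins Clec10a, by 1.55 ± 0.16 (adjusted p = 2.43e-06), and Mrc1, by 1.70 ± 0.21 (adjusted p = 2.07e-05), and the matrix protein gene Postn, whose call was lost when rat 2 or 3 of either SS group was left out (0.0521 to 0.0600). The same 3 were lower in null than in SS rats on high salt, Clec10a at -1.24 ± 0.16 (adjusted p = 1.19e-04), and Clec10a also had an interaction of -1.30 ± 0.22 (adjusted p = 0.00572). None of the 8 lists had a gene that passed between genotypes on low salt. In that comparison 0.557% of all genes passed, so the absence is near the share of all genes. Among the salt rises in SS rats named from these lists, 6 genes passed with the mitochondrial covariate. They were Socs3, Osmr, Irak3, Foxp3, Clec10a and Mrc1, and the other named rises did not pass there.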

How the data were processed

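Kidney microvessels were dissected and their RNA taken up in TRIzol, cleared of DNA with DNase I and enriched for poly A tails, per the labels' protocols. Trim Galore, STAR 2.7.11b, featureCounts 2.0.6, DESeq2 1.44 and build mRatBN7.2 are named in the submitters' processing notes. The authors deposited 1 table of normalised signal, which is gene counts divided by a size factor per library. All values (100% within 1e-06 of a whole number) came out as whole reads after the factor was undone, and every gene held at least 100 reads in sum. Groups came from the sample labels, and each of the 20 libraries is a separately numbered rat. No 2 libraries of a group agreed within sampling noise.

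The test took in genes that reached 10 in 5 or more libraries (16153 of 16672). The 4 group means were fitted with limma 3.58.1 in R 4.3.3 on log2(value + 1), with a trended variance, and a fold change on this scale understates that of low genes. The interaction and 4 pairwise differences were tested two-sided, with a Benjamini-Hochberg threshold of 0.05. The recovered reads were also tested with edgeR 4.0.16 and DESeq2 1.42.0. The script was tested on simulated data. The alternatives were other pseudocounts, filters, scalings, covariates and weights, a fit of the compared groups alone, a replicate block and the omission of rats. The members and lists were chosen with earlier results of these data known. Of the genes on these lists, 1 is not reported here. Every interleukin gene may be named, with all rats' values for the 20 of smallest adjusted p, and at most 4 genes of each other list in a comparison. Promoter sequences are from RefSeq, build GRCr8, matched by symbol.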

Additional observations from a re-analysis of the deposited data

Results flagged for a closer look

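Among 92 sets of 5 rats examined for interleukin genes, 4 held a rat far from the others of its group, where chance gives about 1 in 20 sets. Il6r in null rats on low salt had rat 4 at 475 below a nearest value of 522. Il17ra in the same group had rat 4 at 2240.0 above 1988. Il22ra2 had rat 2 at 20.6 above 8.75 in null rats on low salt, and rat 4 at 29.0 above 16.8 in null rats on high salt.

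The salt effect differed between genotypes by the interaction test of limma in 4 interleukin genes, each with a smaller value in null than in SS rats. The interaction on the log2 scale was -1.13 for Il18r1, -1.83 for Il1rl1, -2.52 for Il24 and -0.88 for Il3ra. Among the signalling genes it was -1.70 for Socs3, -1.06 for Clcf1, -0.50 for Csf2ra, -1.57 for Lcn2, -1.13 for Nfkbiz and -1.30 for Clec10a. With the tubule covariate 0 of all genes passed for the interaction, in place of 409, so none of these interactions passed there. No cause of these differences was tested.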

How the results depend on the processing

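The results were recomputed under each alternative. Genes that rose with salt in SS rats numbered 20, and 11 with a filter of 100, 32 with total scaling, 0 with the tubule covariate, 4 with the mitochondrial covariate and 16 to 20 with 1 rat left out. The 1 that fell became 0 under total scaling with or without the mitochondrially encoded genes, in the compared groups alone, under both covariates and in edgeR, 2 without SS high-salt rat 1 and null low-salt rat 4, and 0 to 2 with 1 rat left out. In null rats the 1 that rose became 2 with a filter of 100, total scaling, quantile normalization, the replicate block, the mitochondrial covariate, edgeR or without those 2 rats, 5 in the compared groups alone, 4 with library weights, 3 in DESeq2, and 1 to 3 with 1 rat left out. The 0 that fell became 1 in the compared groups alone, with the mitochondrial covariate and in DESeq2, 3 with library weights, and 0 to 1 with 1 rat left out. On low salt the 0 higher in null rats became 18 with total scaling, 2 with total scaling without the mitochondrially encoded genes, 1 with library weights, 1 with the replicate block, 2 in DESeq2, and 0 to 4 with 1 rat left out, and the 0 lower stayed 0. On high salt the 1 higher became 0 with total scaling and the tubule covariate and was 0 to 1 with 1 rat left out, and the 7 lower became 4 with a filter of 100 and with the tubule covariate, and 5 to 9 with 1 rat left out. The 4 negative interactions became 2 with a filter of 100, 12 with total scaling, 7 without the mitochondrially encoded genes in that total, 0 and 1 with the tubule and mitochondrial covariates, 8 in DESeq2, and 1 to 7 with 1 rat left out, and no positive one appeared. A filter of 100 leaves fewer genes to test, and otherwise the cause was not tested. With total scaling the all-gene median shifted by 0.39 for salt in SS rats, 0.12 for salt in null rats, 0.27 between genotypes on low salt and -0.27 for the interaction.

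Some log2 values turned sign. Il17rd in SS rats was 0.022 with the tubule covariate. Between genotypes on low salt Il19 was 0.26 with library weights and 0.034 without null rat 4, alone or with SS high-salt rat 1, Il24 was 0.14 without null rat 3, and Il34 was 0.081 with total scaling. With 1 rat left out that difference ran from -0.66 to 0.034 for Il19 and from -0.52 to 0.14 for Il24. Salt in SS rats with total scaling gave 0.11 for Stat4 and 0.20 for Tollip. The Ccl2 difference ran from -0.23 to -0.01 on low salt and from -1.63 to -1.29 on high salt with 1 rat left out.

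Over 30 same-numbered pairs of rats from different groups, deviations correlated from -0.159 to 0.144. Over 120 other-numbered pairs they correlated from -0.237 to 0.206. Such weak correlations cannot show whether the numbers pair the groups. The replicate block left 20 higher and 1 lower for salt in SS rats. Under it the Il3ra interaction did not pass (adjusted p = 0.0583) and that of Il19 did (adjusted p = 0.0485). Genes of a few reads a library, such as Il6 and Il22ra2, limit what can be called.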
